A study of Mus musculus with 10 samples.

Results

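Aminoacyl-tRNA synthetases load each transfer RNA with its amino acid, the step that fixes the genetic code during translation. The genes described here are 36 rows of the deposited count table, taken by symbol: 20 encode cytosolic synthetases and 16 encode mitochondrial ones, whose symbols end in 2. The table holds 35976 genes in all, and each of the 36 was found in it once and passed the filter on low counts in every comparison. The enzymes fall into 2 structural classes with unrelated catalytic folds, class I (19 genes here) and class II (17 genes). Eprs, which joins glutamyl- and prolyl-tRNA synthetase in a single protein, was counted with class I. In the cytosol, 8 of these proteins (Dars, Eprs, Iars, Kars, Lars, Mars, Qars and Rars) assemble with the scaffold proteins Aimp1, Aimp2 and Eef1e1 into the multisynthetase complex. Gars and Kars each supply both the cytosol and the mitochondrion from a single gene. When uncharged tRNA accumulates, the kinase GCN2 phosphorylates the initiation factor eIF2, translation of the transcription factor ATF4 increases, and ATF4 activates amino acid synthesis genes and many cytosolic synthetase genes.

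RNA was taken from mouse morulae, the preimplantation stage just before the blastocyst, of the strain combination BDF1 x PWK. The series compares embryos knocked out for Jarid2, which recruits and regulates the Polycomb complex PRC2, with controls. The single-embryo set held 3 wild-type female embryos (replicates 1, 2 and 3) and 3 Jarid2 knockout female embryos (replicates 1, 3 and 4), each sequenced alone. Replicate 2 of the knockout was not analysed here. In the pooled set there were 2 control and 2 Jarid2 knockout libraries of about 20 embryos each, of a sex the labels do not give. The zona pellucida was removed from all embryos with acidic Tyrode's solution, polyadenylated RNA was amplified with SMART-Seq v4 chemistry, and cDNA fragments were read from one end over 75 bases. The sources used here do not say how the deletion was made, nor whether the pools came from separate litters. The p-values of the pools therefore reflect only how much these pools varied, and that variation may be technical.

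The promoters are shown first, because ATF4 and its C/EBP partners bind a composite element of the form TGATGNAA that lies in the promoters of amino acid response genes. Promoter sequence from RefSeq (GRCm38.p6, 250 bases before to 50 bases after the gene's start) was found for 27 of the 36 genes. Those of Cars, Hars, Lars, Nars, Rars, Vars, Wars, Hars2 and Pars2 were not used. The motif was searched on both strands, and it was present in 5 of the 27 promoters (18.5%), against 1219 of 27025 promoters of all genes (4.51%). All 5 belonged to cytosolic synthetase genes. For 4 of them the windows of 30 bases around the match are printed 5′ to 3′ on the gene's own strand, with the 8 bases of the match in capitals. TTGCATCA and TTTCATCA are the same motif read on the other strand.
Yars: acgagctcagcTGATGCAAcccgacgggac
Gars: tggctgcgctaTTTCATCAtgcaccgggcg
Tars: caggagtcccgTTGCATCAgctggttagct
Iars: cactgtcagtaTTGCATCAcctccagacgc
Asns: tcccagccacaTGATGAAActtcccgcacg

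The Yars window lies at chr4:129189895-129189924 on the plus strand, and the match starts at base 4 after the gene's start. The Gars window is at chr6:55037960-55037989 (plus strand, match from base -30), the Tars window at chr15:11399655-11399684 (minus strand, match from base -15), and the Iars window at chr13:49682126-49682155 (plus strand, match from base 8). The Asns window, shown for comparison from the gene of asparagine synthetase, an ATF4 target, is at chr6:7693214-7693243 (minus strand, match from base -23). Of the GCN2 and ATF4 genes searched in the same way, Trib3 and Chac1 also held the motif. Psat1, Phgdh, Sesn2, Ddit3, Ddit4, Atf4 and the others searched did not. A match is a description of letters and not of a bound site.

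Each single-embryo library held between 14830332 and 18696312 counts, and each pool between 41003216 and 49861963. Jarid2, the targeted gene, was measured at 580.3, 686 and 776 CPM, which sets each gene's count against the total of its library, in wild-type embryos 1, 2 and 3 and at 156, 319 and 61.3 CPM in knockout embryos 1, 3 and 4. In single embryos it fell by 1.92 on the log2 scale (SE 0.43, adjusted p = 0.0342 by edgeR's quasi-likelihood test). Leaving out any library other than knockout embryo 3 put that call at adjusted p = 0.0507 to 0.127. In pools its levels were 442 and 496 CPM in controls and 181 and 158 CPM in knockouts, and the log2 change was -1.55 (SE 0.18, edgeR adjusted p = 0.0792), and DESeq2 and limma-voom called it lower. On the first principal component of the genes that passed the filter on low counts, the 3 wild-type single embryos had scores of -77.5 to -41.3. The 7 other libraries had scores of -11.8 to 41.7. All 10 morula and early lineage markers were detected in every group, with summed levels of 4574 to 6074 CPM over all libraries. Dppa5a made up the largest part of that sum (2524 to 4129 CPM), and single markers differed more. Sox2 had 57.4 to 71.0 CPM in wild-type and 6.22 to 62.3 CPM in knockout single embryos, and 8.74 to 19.9 CPM in pools. Krt18 had 929 to 1016, 481 to 1100 and 304 to 577 CPM in the same order, while the ranges of Tead4 overlapped (81.7 to 98.9, 82.7 to 119 and 75.1 to 105 CPM). The 6 cumulus and granulosa cell markers summed to at most 0.674 CPM, with Has2, Fshr and Inha at 0 in every group. The 5 markers of the 2-cell embryo summed to 0 to 0.135 CPM in wild-type single embryos (Zscan4c, Zscan4d, Usp17lc and Tdpoz4 at 0), 0.498 to 16.2 CPM in knockout single embryos and 2.47 to 5.29 CPM in pools. The 7 oocyte markers summed to 47.8 to 163.9 CPM in wild-type and 36.7 to 98.1 CPM in knockout single embryos and to 61.5 to 74.4 CPM in pools, with Oosp1 at 0 in knockout single embryos and Mos at 0 in control pools. The 4 fibroblast markers summed to 12.3 to 141.6, 9.27 to 56.1 and 13.6 to 15.7 CPM in the same order, with Col1a2 at 0 in wild-type single embryos and knockout pools. Zp3 made up most of the oocyte sum, at 45.9 to 161 CPM in wild-type and 35.6 to 97.2 CPM in knockout single embryos. Pdgfra made up most of the fibroblast sum. It was at 140.9, 12.1 and 96.8 CPM in wild-type embryos and 8.66, 55.3 and 11.3 CPM in knockout embryos 1, 3 and 4. Col1a1, Col1a2 and Thy1 were each at most 1.05 CPM in any library. The part of these differences in the synthetase values below was not tested. In whole embryos, fewer cells of a type and less RNA per cell cannot be told apart.

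Per kilobase of transcript, the cytosolic synthetase genes were more abundant than the mitochondrial ones. The median level over the 10 libraries was 51.3 CPM per kilobase for the cytosolic genes (14.8 to 139.9) and 9.74 for the mitochondrial genes (0.808 to 65.4). Lengths are those of the longest principal coding transcript of each gene in GENCODE M21, and the 75-base reads of amplified cDNA need not cover it evenly. Over the mean of the 10 libraries the highest was Nars, asparaginyl-tRNA synthetase, at 139.9 CPM per kilobase (108 to 178 over libraries), with Rars, arginyl-tRNA synthetase, at 138.4 (94.9 to 178). The order of this pair depended on the group and on the length used. Nars was above Rars in wild-type (118.7 against 104.1) and knockout single embryos (168.0 against 157.0), Rars was above Nars in control pools (150.2 against 143.7) and knockout pools (150.4 against 125.9), and over the 10 libraries the order turns over when all annotated exons are used as the length. Farsb, the beta subunit of phenylalanyl-tRNA synthetase, was at 104.7 CPM per kilobase (74.5 to 187), which was rank 3 over the 10 libraries and ranks 7, 3, 4 and 5 in wild-type single embryos, knockout single embryos, control pools and knockout pools, while its partner subunit Farsa was at 65.7 (47.5 to 98.7). Among the mitochondrial genes Lars2, leucyl-tRNA synthetase, led at 65.4 (38.2 to 119), followed by Rars2, arginyl-tRNA synthetase, at 35.1 (21.2 to 53.3) and Tars2, threonyl-tRNA synthetase, at 24.5 (15.9 to 35.0). Tars2 moved from rank 18 to rank 25 of the 36 with all annotated exons as its length. The lowest values were those of Mars2, methionyl-tRNA synthetase, at 0.808 CPM per kilobase over a transcript annotated at 11294 bases, and Vars2, valyl-tRNA synthetase, at 2.59.

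For 13 amino acids there is a gene for each compartment. Over the mean of the 10 libraries, 12 of these pairs had the cytosolic gene at the higher level per kilobase, by 1.07-fold for cysteine (Cars over Cars2) to 52.1-fold for methionine (Mars over Mars2). For leucine the cytosolic gene was at 0.318 times the level of Lars2. Leucine was the 1 such pair in wild-type single embryos and in both groups of pools, while in knockout single embryos Cars2 (17.9 ± 1.73 CPM per kilobase, SD, n = 3) was also above Cars (16.6 ± 6.01), by less than the spread of Cars. The genes also differed in how steady they were. Kars and Tars each spanned 1.37-fold from the lowest to the highest of the 10 libraries, while Vars2 spanned 10.6-fold and Iars2 4.94-fold. The widest range among the cytosolic genes was that of Vars, 3.66-fold.

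**Figure D1:**
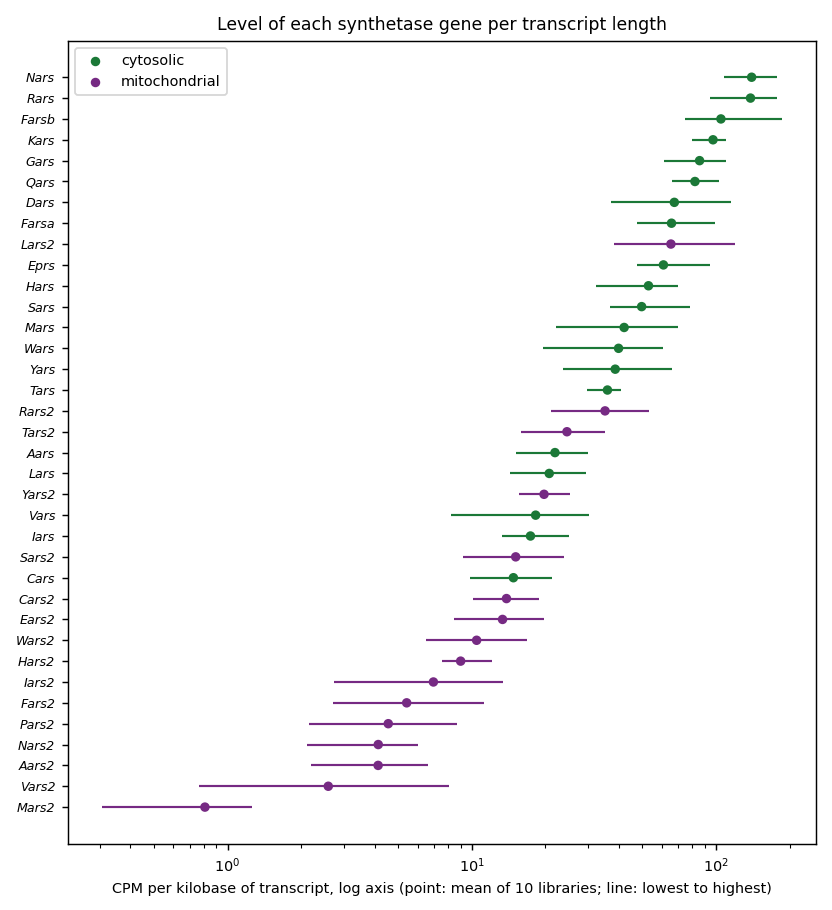
Level of each of the 36 synthetase genes in CPM per kilobase of transcript, on a log axis, as the mean of 10 libraries (point) with the lowest and highest library (line). Cytosolic genes occupy most of the upper part of the plot, with Nars (139.9) at the top and Mars2 (0.808) lowest of all. The compartments interleave, since Lars2 (65.4), Rars2 (35.1) and Tars2 (24.5) lie above several cytosolic genes, of which Cars (14.8) is lowest.

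Within single embryos, most cytosolic synthetase genes read higher in the Jarid2 knockout and a smaller group, mostly of class I, read lower, but none passed the 5% threshold in edgeR's test over all genes. The median log2 change was 0.34 for the 20 cytosolic genes (14 positive, 6 negative, -0.57 to 1.02) and -0.003 for the 16 mitochondrial genes (8 positive, 8 negative, -1.66 to 0.84), against -0.03 for all 13830 genes tested. The count of calls was 0 of 36 by edgeR, where 4.37% of all genes tested were called. At an unadjusted p under 0.05, 9 synthetase genes were higher and 6 lower, where the shares over all genes were 10.4% and 12.2%. DESeq2 called 8 higher (Dars, Yars, Nars, Farsb, Wars, Rars, Hars and Rars2) and 3 lower (Vars2, Iars2 and Lars2), where it called 8.85% and 9.5% of the genes it tested. limma-voom called 0 of the 36 and 5.47% of all genes. Whether any synthetase gene was called in single embryos thus differed between tools.

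The largest positive value among the cytosolic genes was that of Dars, aspartyl-tRNA synthetase. Its levels were 80.7, 135 and 99.8 CPM in wild-type embryos 1, 2 and 3 and 216, 145 and 251 CPM in knockout embryos 1, 3 and 4. Every knockout embryo lay above every wild-type embryo, though knockout embryo 3 did so only narrowly. The log2 change was 1.02 (SE 0.28, edgeR adjusted p = 0.0632, and 0.0008 to 0.26 over the alternatives).

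Yars, tyrosyl-tRNA synthetase, had 69.0, 106 and 87.3 CPM in wild-type embryos and 192, 145 and 128 CPM in knockout embryos 1, 3 and 4. The groups did not overlap, and the highest value was that of knockout embryo 1. Its log2 change was 0.89 (SE 0.25, edgeR adjusted p = 0.0687, and 0.0065 to 0.25 over the alternatives). Yars also carries one of the motif matches printed above. The 3 other genes whose windows are printed had log2 changes of 0.24 (Gars), 0.02 (Tars) and -0.53 (Iars), so they read both above and below 0.

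Nars had 319, 361 and 297 CPM in wild-type embryos and 434, 459.8 and 489 CPM in knockout embryos 1, 3 and 4. All 3 knockout embryos were above the wild-type range, and their spread was small (461 ± 27.3 against 326 ± 32.8 CPM, SD, n = 3 each). On the log2 scale this was 0.55 (SE 0.17, edgeR adjusted p = 0.0840, and 0.0187 to 0.57 over the alternatives). It is thus smaller in size than that of Dars and among the better separated of the 36.

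Of the other cytosolic genes with positive values, Wars, Rars, Hars and Sars also had no overlap between groups in CPM. Wars, tryptophanyl-tRNA synthetase, had a log2 change of 0.82 (SE 0.31), with 35.7 to 86.0 CPM in wild-type and 99.2 to 110.4 CPM in knockout embryos. Rars, a complex member, had 200.2 to 248 CPM against 254 to 375 CPM, a log2 change of 0.65 (SE 0.23). The log2 changes use TMM scaling factors, 0.987 for wild-type embryo 3 and 1.07 for knockout embryo 3. So scaled, Rars in knockout embryo 3 fell below wild-type embryo 3, and the groups overlapped. Hars, histidyl-tRNA synthetase, had 0.62 (SE 0.24) and Sars, seryl-tRNA synthetase, 0.57 (SE 0.22). Both subunits of phenylalanyl-tRNA synthetase read higher on average, Farsb by 0.83 (SE 0.29) and Farsa by 0.52 (SE 0.29) on the log2 scale. Farsb overlapped, since knockout embryo 3 (168 CPM) fell within the wild-type values of 152, 172 and 173 CPM while knockout embryos 1 and 4 had 294 and 381 CPM.

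**Figure D2:**
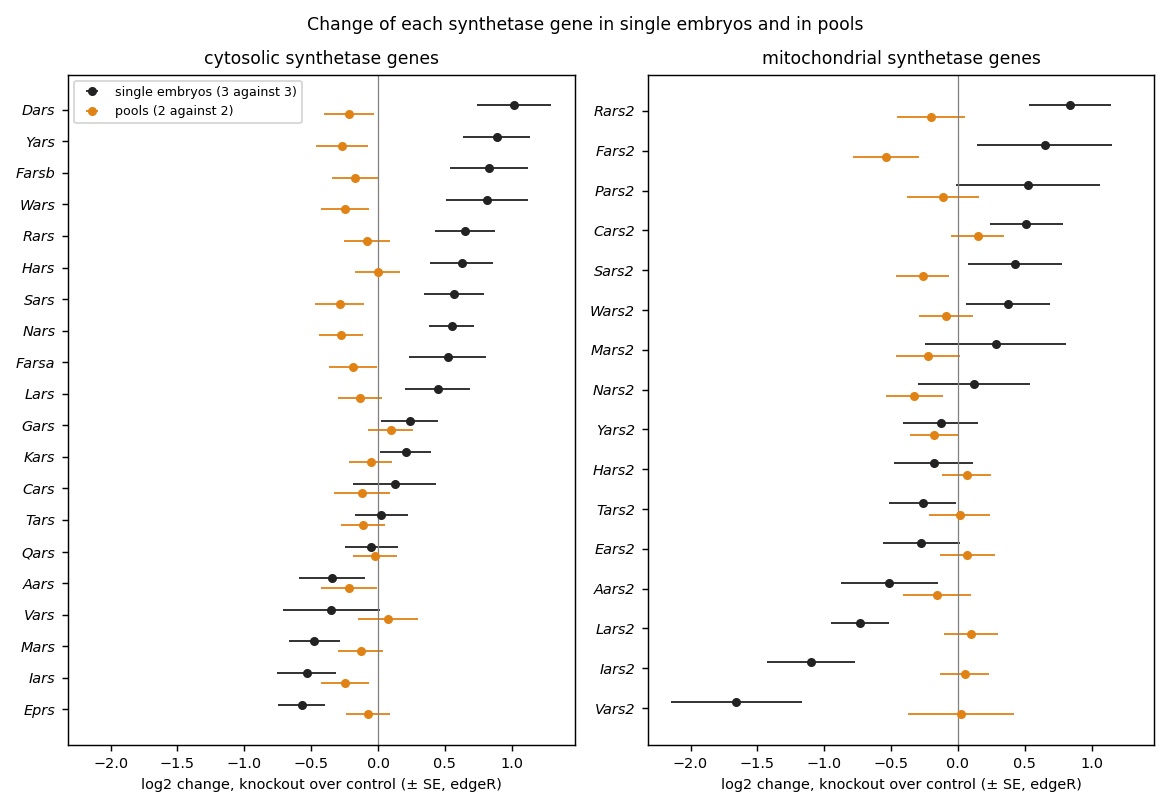
Log2 change, knockout over control, of each synthetase gene in single embryos (black, 3 against 3) and in pools (orange, 2 against 2), with its standard error from edgeR, for the 20 cytosolic genes on the left and the 16 mitochondrial genes on the right. Single-embryo values run from 1.02 (Dars) to -1.66 (Vars2), and the pooled values stay between -0.54 and 0.15.

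Among the 20 cytosolic genes, 3 were lower without overlap in CPM, where 15.3% of all genes tested were so ordered. All 3 are enzymes of the multisynthetase complex, which also held 2 that were higher without overlap in CPM. Eprs, the bifunctional glutamyl-prolyl enzyme, had 398, 466 and 338 CPM in wild-type embryos and 254, 267 and 261 CPM in knockout embryos 1, 3 and 4. The 3 knockout embryos lay close together, below every wild-type embryo, and near the 4 pools of both genotypes (233 to 269 CPM). The log2 change was -0.57 (SE 0.18, edgeR adjusted p = 0.0881). Iars, isoleucyl-tRNA synthetase, had a log2 change of -0.53 (SE 0.22), with 84.7 to 111 CPM against 58.8 to 74.3 CPM. Mars, methionyl-tRNA synthetase, had -0.48 (SE 0.19), with 162 to 206 CPM against 114 to 147 CPM, and both ranges were above the pools (64.8 to 77.0 CPM). At 96.0% identity over 1656 bases, a processed pseudogene of Iars, Gm4849, could share its reads.

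The complex as a whole did not lean one way. Of its 8 enzymes, 4 had positive and 4 negative log2 changes in single embryos, with a median of 0.08. The 12 cytosolic genes outside the complex had a median of 0.54, with 10 positive and 2 negative. By class, the 10 cytosolic class II genes had a median of 0.54 (9 positive, 1 negative) and the 10 class I genes 0.04 (5 positive, 5 negative). At an unadjusted p under 0.05, 5 of 17 class II genes of both compartments were higher and 0 lower, and 4 of 19 class I genes were higher and 6 lower, where 10.4% of all genes tested were higher and 12.2% lower. No test of these groups against each other was made.

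The mitochondrial genes held the largest negative values. Vars2, valyl-tRNA synthetase, had 35.6, 16.2 and 17.3 CPM in wild-type embryos and 6.44, 11.5 and 3.60 CPM in knockout embryos 1, 3 and 4. The groups did not overlap, and wild-type embryo 1 stood far above the other 9 libraries. The log2 change was -1.66 (SE 0.49, edgeR adjusted p = 0.0777, and 0.0089 to 0.31 over the alternatives). The pools had 4.73 and 6.57 CPM in controls and 3.37 and 9.07 CPM in knockouts, and knockout single embryos 1 and 4 lay in this range, with embryo 3 above it.

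Iars2, the mitochondrial isoleucyl-tRNA synthetase, had 73.7, 54.0 and 50.7 CPM in wild-type embryos and 14.9, 33.2 and 33.5 CPM in knockout embryos 1, 3 and 4. All 3 knockout embryos were below the wild-type range, with embryo 1 the lowest. For Iars2 the log2 change was -1.10 (SE 0.33, edgeR adjusted p = 0.0797, and 0.0112 to 0.27 over the alternatives). Of its annotated exon bases, 2034 (30.5%) are shared with Rab3gap2 on the opposite strand, so the reads of these genes may not be told apart. Rab3gap2 itself had 16.5, 18.8 and 15.1 CPM in wild-type embryos and 5.99, 11.2 and 17.4 CPM in knockout embryos 1, 3 and 4, and its part in the Iars2 values was not tested.

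Lars2, the most abundant mitochondrial gene, had 465, 330.0 and 329 CPM in wild-type embryos and 220.0, 273 and 166 CPM in knockout embryos 1, 3 and 4. The groups did not overlap. For Lars2 the log2 change was -0.73 (SE 0.22, edgeR adjusted p = 0.0800, and 0.0223 to 0.48 over the alternatives), while its cytosolic counterpart Lars had 0.45 (SE 0.24). A stretch of 72 bases of the Lars2 transcript is 98.6% identical to the noncoding RNA Gm15564, at chr16:35966752-35983230. Gm15564 ordered the 6 single embryos almost as Lars2 did, with 323, 184 and 208 CPM in wild-type embryos and 121, 155 and 85.4 CPM in knockout embryos 1, 3 and 4. In pools it had 37.3 to 63.9 CPM against 149 to 222 CPM for Lars2. Whether the pair share reads was not tested.

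Rars2 had the largest positive value among the mitochondrial genes, with 39.5, 49.8 and 51.8 CPM in wild-type embryos and 99.6, 52.0 and 89.5 CPM in knockout embryos 1, 3 and 4. In CPM, knockout embryo 3 lay just above the wild-type range, and the other knockout embryos far above it. With the TMM factors of knockout embryo 3 (1.07) and wild-type embryo 3 (0.987), Rars2 in the former fell below the latter. On the log2 scale the change was 0.84 (SE 0.31, edgeR adjusted p = 0.136). Cars2, cysteinyl-tRNA synthetase, also had no overlap, at 22.8 to 25.5 CPM against 30.2 to 35.9 CPM (log2 change 0.51, SE 0.27). Counting all 36 genes in CPM by library totals, 9 had every knockout embryo above every wild-type embryo and 6 had every one below. The 9 include Rars and Rars2, whose order depended on the scaling. The shares over all genes tested were 12.6% and 15.3%.

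**Figure D3:**
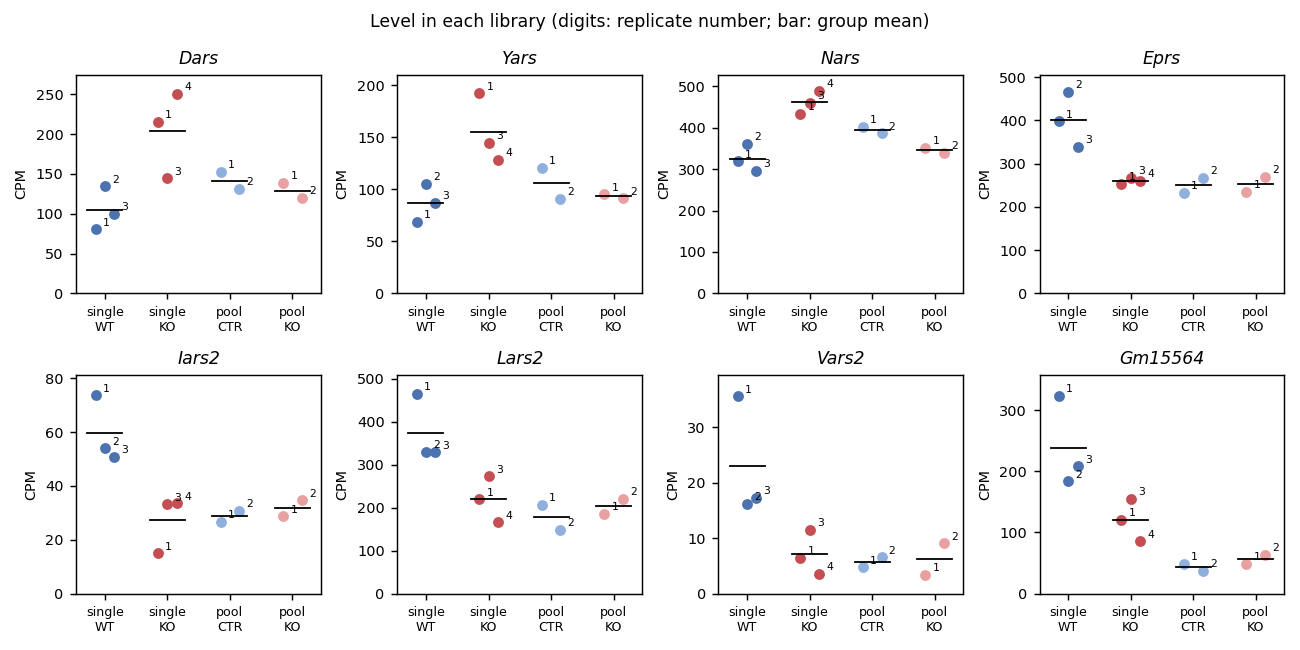
Level in CPM in each library for the 3 synthetase genes with the smallest p in each direction in single embryos, Eprs, and Gm15564, with the replicate number beside each point and a bar at the group mean. Iars2, Lars2 and Vars2 are higher in the 3 wild-type single embryos than in the 7 other libraries, and Dars, Yars and Nars are higher in the 3 knockout single embryos than in the 3 wild-type ones.

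Knockout embryo 3 differed from the other knockout embryos for several of these genes. Without it, edgeR called 6 of the 36 synthetase genes, 5 higher and 1 lower. Those higher were Dars (log2 change 1.25, adjusted p = 0.0173), Farsb (1.13, adjusted p = 0.0147), Rars (0.85, adjusted p = 0.0255), Rars2 (1.11, adjusted p = 0.0269) and Yars (0.99, adjusted p = 0.0464). Vars2 was lower (-2.08, adjusted p = 0.0406). Calls over all genes went from 161 higher and 444 lower of 13830 tested to 602 and 714 of 14546 in the same step. When any 1 of the 5 other single-embryo libraries was left out, 0 synthetase genes were called. Among the cytosolic genes, 10, 11 and 12 of 20 were above every wild-type embryo in knockout embryos 1, 3 and 4, and 7, 3 and 6 were below. Over all genes tested, the shares above every wild-type embryo were 26.7%, 30.5% and 28.2% in the same order. Knockout embryo 3 thus shared the positive side and less of the negative side. Over all genes it also had the most above and the fewest below (24.6%, against 39.1% and 36.2%).

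**Figure D4:**
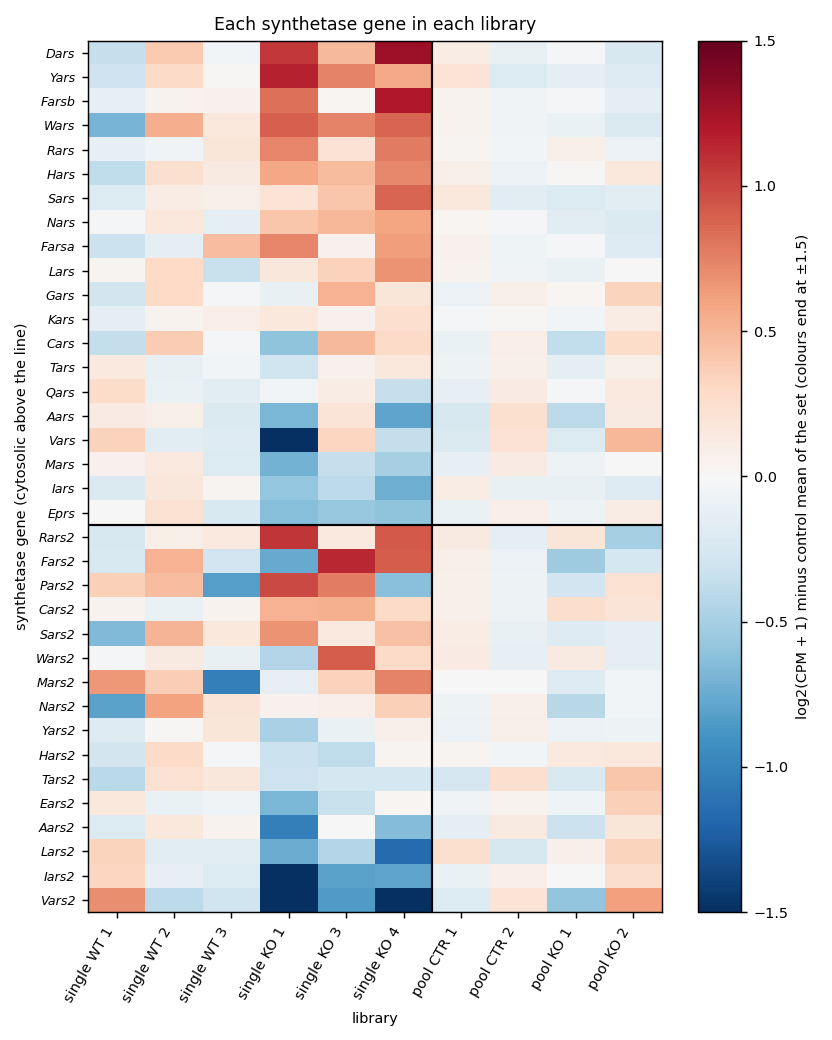
Each synthetase gene (rows, cytosolic above the horizontal line) in each library (columns, single embryos left of the vertical line) as log2(CPM + 1) minus the mean of the controls of its set, with colours ending at 1.5 in both directions. Most of the upper cytosolic rows are red in knockout embryos 1 and 4, Farsb, Farsa and Rars are paler in knockout embryo 3, and Vars2, Iars2 and Lars2 are blue in the knockout single embryos.

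Summed over each compartment, the values went in opposite directions in single embryos. The 20 cytosolic genes added up to 2975, 3376 and 3010 CPM in wild-type embryos and 3476, 3496 and 3870 CPM in knockout embryos 1, 3 and 4 (3120 ± 222 against 3614 ± 222 CPM, SD, n = 3 each). The 16 mitochondrial genes added up to 906, 833 and 783 CPM against 637, 742 and 647 CPM (841 ± 61.5 against 675 ± 58.3 CPM, SD, n = 3 each). Neither sum overlapped between the groups. Most of the mitochondrial difference lay in Lars2, since without it the sums were 441, 503 and 455 CPM against 417, 469.5 and 481 CPM, which overlap. The ratio of the cytosolic to the mitochondrial sum was 3.28, 4.05 and 3.84 in wild-type and 5.46, 4.71 and 5.98 in knockout embryos. Without Lars2 it was 6.75, 6.72 and 6.62 against 8.34, 7.45 and 8.04, and the groups still did not overlap. In pools the ratio was 5.32 and 5.94 in controls and 5.30 and 5.14 in knockouts, and 8.32 and 8.34 against 8.02 and 8.18 without Lars2. These sums are given as values without a test.

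**Figure D5:**
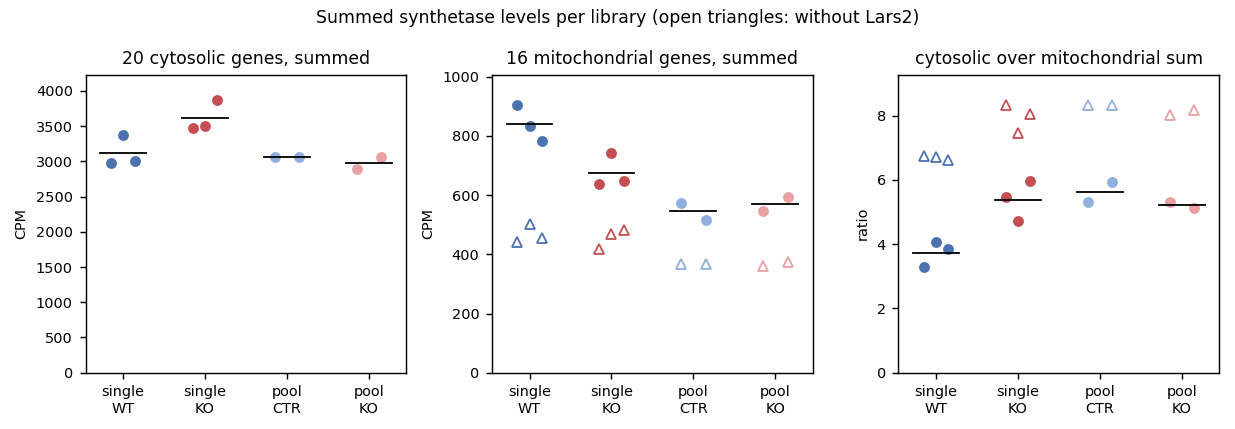
Summed CPM of the 20 cytosolic and of the 16 mitochondrial synthetase genes in each library, and their ratio, with bars at the group means and open triangles for the values without Lars2. The ratio is 3.28 to 4.05 in wild-type single embryos, 4.71 to 5.98 in knockout single embryos and 5.14 to 5.94 in pools.

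In pools the values of the synthetase genes were small, and how many lay below 0 depended on the scaling. The median log2 change was -0.13 for the cytosolic genes (2 positive, 18 negative) and -0.10 for the mitochondrial genes (7 positive, 9 negative), against 0.01 over all 16259 genes tested. With library totals in place of TMM factors, 7 cytosolic genes were positive and 13 negative, with a median of -0.04 against 0.10 over all genes, and with DESeq2's size factors 5 mitochondrial genes were positive and 11 negative. All values lay between -0.54 and 0.15. edgeR called 0 of the 36 and 0% of all genes, and 0 of the 36 had an unadjusted p under 0.05, where 6.6% of all genes did. DESeq2 and limma-voom also called 0 of the 36, where they called 0.487% and 0.00615% of all genes. On library totals the groups did not overlap for 2 genes that were higher and 6 that were lower, where 24.3% and 11.1% of all genes tested were so ordered.

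The smallest p among the negative values belonged to Fars2, the mitochondrial phenylalanyl-tRNA synthetase, with 10.1 and 8.81 CPM in control pools and 6.22 and 7.73 CPM in knockout pools. Its log2 change was -0.54 (SE 0.25, edgeR adjusted p = 0.756), and in single embryos it was 0.65 (SE 0.51) with overlapping groups. Nars had 403 and 386 CPM in control pools and 352 and 339.8 CPM in knockout pools, with a log2 difference of -0.28 (SE 0.17, edgeR adjusted p = 0.834). Sars had 196 and 157 against 151 and 157 CPM, with a log2 difference of -0.29 (SE 0.18, edgeR adjusted p = 0.845). Among the positive values, Cars2 had 21.4 and 19.2 against 24.5 and 23.3 CPM (log2 change 0.15, SE 0.20). On library totals it was higher in knockouts without overlap in both sets, as 24.3% of all genes tested were in pools. Scaled by the TMM factors behind the log2 change, Cars2 in knockout pool 2 fell below control pool 1, and the pools overlapped. Gars, glycyl-tRNA synthetase, had 194 and 221 against 211 and 261 CPM (0.10, SE 0.17), and Lars2 had 207 and 149 against 185 and 222 CPM (0.10, SE 0.20). In the pools Dars had 152 and 131 CPM in controls and 139 and 119.8 CPM in knockouts, a log2 change of -0.22 (SE 0.19), and Yars had 120.5 and 90.8 against 95.2 and 91.2 CPM (-0.27, SE 0.20).

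The difference of the knockout effects between the sets was tested in a fit over all 10 libraries. edgeR called 0 of the 36 genes and 0.0063% of the 15878 genes tested. At an unadjusted p under 0.05, 8 were more positive in single embryos than in pools (Dars, Farsb, Nars, Rars, Sars, Wars, Yars and Rars2), and 3 were more negative (Iars2, Lars2 and Vars2), where the shares over all genes were 8.1% and 6.55%. DESeq2 called 3, all more positive in single embryos (Dars, Nars and Yars), where it called 2.76% of all genes in that direction, and limma-voom called 0 of the 36 and 0.0063% of all genes. For Nars the difference was 0.85 on the log2 scale (SE 0.23, edgeR adjusted p = 0.235), for Dars 1.26 (SE 0.39, edgeR adjusted p = 0.235) and for Yars 1.18 (SE 0.36, edgeR adjusted p = 0.235).

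Where an amino acid has a gene for each compartment, the log2 changes of the pair did not always share a sign. In single embryos 8 of 13 pairs had log2 changes of the same sign, and in 10 the cytosolic gene had the more positive value. In pools 8 pairs had the same sign, and the cytosolic gene was the more positive in 4. Arginine had 0.65 for Rars and 0.84 for Rars2 in single embryos, and isoleucine had -0.53 for Iars and -1.10 for Iars2. Leucine (Lars 0.45, Lars2 -0.73), tyrosine (Yars 0.89, Yars2 -0.13), histidine (Hars 0.62, Hars2 -0.18), threonine (Tars 0.02, Tars2 -0.26) and methionine (Mars -0.48, Mars2 0.28) had opposite signs. Hars and Hars2 lie head to head and share 195 exon bases, so part of their reads could be counted for either gene.

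The rest of the 36 had small or widely spread values in single embryos. For Kars (0.21, SE 0.19), Gars (0.24, SE 0.21), Cars (0.12, SE 0.31), Tars (0.02, SE 0.20) and Qars (-0.05, SE 0.20) the groups overlapped. The same held for Lars, Farsa, Vars (-0.35, SE 0.36) and Aars, alanyl-tRNA synthetase (-0.34, SE 0.25), which shares 1326 exon bases (23.1%) with Exosc6. For Vars, knockout embryo 3 (122 CPM) lay within the wild-type range, and for Aars it was above that range (173 CPM), while knockout embryos 1 and 4 were lower. The remaining mitochondrial genes, Aars2 (-0.51), Ears2 (-0.27), Tars2 (-0.26), Hars2 (-0.18), Yars2 (-0.13), Nars2 (0.12), Mars2 (0.28), Wars2 (0.37), Sars2 (0.43), Pars2 (0.52) and Fars2 (0.65), had overlapping groups and standard errors of 0.25 to 0.54 on the log2 scale.

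Among the proteins that work with the synthetases, the complex scaffold gene Aimp2 rose in single embryos. Its levels were 75.0, 101 and 105 CPM in wild-type and 226, 149 and 213 CPM in knockout embryos 1, 3 and 4, with a log2 difference of 1.13 (SE 0.25, edgeR adjusted p = 0.0354). Knockout embryos 1 and 4 were in the range of the pools of both genotypes (175 to 229.9 CPM), and embryo 3 was below it. The Aimp2 call was lost when any single library other than knockout embryo 3 was left out (adjusted p = 0.0632 to 0.148). It was the 1 gene of 13 of scaffolds and tRNA charging that passed edgeR's test, where 1.16% of all genes tested were called higher. DESeq2 called 2 of the 13 higher, Aimp2 and the scaffold gene Eef1e1 (DESeq2 log2 change 0.90, adjusted p = 0.0176), against 8.85% of the genes it tested, and 5 of the 13 were higher at an unadjusted p under 0.05, against 10.4%. Of the list, 12 had positive values, with a median of 0.59. In pools edgeR, DESeq2 and limma-voom called 0 of these 13, 1 had an unadjusted p under 0.05 (6.6% of all genes), and the median was -0.20. That gene was Dtd2, a D-aminoacyl-tRNA deacylase (log2 change -0.45, SE 0.16, edgeR adjusted p = 0.677).

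Of the 6 elongation factor genes that carry charged tRNA or recycle its carrier, 0 passed edgeR's test and 3 were called higher by DESeq2, where 8.85% of the genes it tested were. All 6 had positive values in single embryos, with a median of 0.46. At an unadjusted p under 0.05, 3 were higher, against 10.4% of all genes tested. The smallest p was that of Eef1g, a subunit of elongation factor 1, at 405, 489 and 409 CPM in wild-type and 573, 705 and 609.9 CPM in knockout embryos 1, 3 and 4 (log2 change 0.58, SE 0.16, edgeR adjusted p = 0.0681). In pools edgeR, DESeq2 and limma-voom called 0 and an unadjusted p under 0.05 was reached by 0. The median there was -0.03, and the smallest p was that of Tsfm, a mitochondrial elongation factor (log2 change -0.34, SE 0.19, edgeR adjusted p = 0.822).

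Of the GCN2 and ATF4 genes, 12 were tested in single embryos, and 2 rose by edgeR's test, where 1.16% of all genes tested were called higher. Asns, asparagine synthetase, whose promoter match is printed above, had 23.5, 18.9 and 10.6 CPM in wild-type and 42.0, 49.8 and 75.0 CPM in knockout embryos 1, 3 and 4, with a log2 difference of 1.71 (SE 0.36, edgeR adjusted p = 0.0274). Psat1, an enzyme of serine synthesis, had 293, 407 and 356 CPM against 984, 665 and 665 CPM, with a log2 difference of 1.19 (SE 0.23, edgeR adjusted p = 0.0227). Leaving out any library other than knockout embryo 3 put Asns at adjusted p = 0.0515 to 0.123, and leaving out wild-type embryo 1 or 3 or knockout embryo 1 or 4 put Psat1 at 0.0717 to 0.104. The 4 pools of both genotypes had 25.1 to 46.2 CPM for Asns and 539.9 to 747 CPM for Psat1. DESeq2 also called Eif2s1, the alpha subunit of eIF2 (DESeq2 log2 change 1.05, adjusted p = 0.0053, with edgeR's adjusted p at 0.0712), and so 3 of the 12 against 8.85%. At an unadjusted p under 0.05, 3 of the 12 were higher, against 10.4%. Atf4 mRNA itself had a log2 change of 0.04 (SE 0.21). The median of the 12 was 0.60 with 10 positive, and in pools the median of 13 was -0.06. In pools edgeR, DESeq2 and limma-voom called 0 of the 13, and 2 had an unadjusted p under 0.05, against 6.6% of all genes. The smaller p was that of Ddit4, a stress-induced inhibitor of mTOR signalling (log2 change 0.86, SE 0.34, edgeR adjusted p = 0.697).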

How the data were processed

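The authors deposited 1 table of read counts per gene, whole numbers without normalization, for 10 libraries. Per the submitters' processing notes, the genome was mm10 and the tools were STAR 2.7.6a, fastp 0.21.0 and RSEM 1.3.1. Their roles, the annotation, the strand setting and the handling of multi-mapping reads are not stated in the sources used here, and overlapping genes may share reads.

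Groups were taken from the labels. Each set was fitted by itself, and the difference between the sets over all 10 libraries, with edgeR 4.0.16 in R 4.3.3 (filterByExpr, TMM, quasi-likelihood F test, two-sided, Benjamini-Hochberg adjustment over all genes tested, threshold 0.05, prior count 0.125). Standard errors were derived from the log2 change and its F value. CPM used library totals, and so did statements of overlap between groups, unless TMM factors are named. Principal components used log2(CPM + 1). DESeq2 1.42.0 and limma-voom (limma 3.58.1), other scalings and filters, a replicate block and leaving out each library were alternatives. The fits were tested on simulated data. Coordinates, lengths and exon overlaps came from GENCODE M21 (GRCm38, the build that mm10 names), promoters from RefSeq. Near-identical transcripts were sought with BLAST at 95% identity or more over at least 70 bases.

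Replicates differed by more than sampling noise (chi-square of 49.4 to 88.4 per gene). Reads carried no molecular identifiers. The genes and lists were chosen with earlier results of these data known. All 36 genes are accounted for, and full values are given for those past 5%, the 3 with the smallest p in each direction and set, the 3 most abundant per kilobase in each compartment, and Jarid2. Of the other lists, genes past 5% in a set are given, or else the one with the smallest p. Eprs, Farsb, Wars, Rars, Rars2, Hars, Iars, Mars, Aars, Vars, Farsa, Dars and Yars in pools, and Rab3gap2, Gm15564, Atf4, Eef1e1 and Eif2s1, were named after their values were seen. The window of 1 promoter match is not reported here.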

Additional observations from a re-analysis of the deposited data

How the results depend on the processing

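With every gene kept, edgeR called 5 synthetase genes higher and 3 lower in single embryos, with genes of a mean of at least 10 CPM 3 and 4, with all 10 libraries in one fit 3 and 2, and with DESeq2 8 and 3. The numbers tested differed between these settings. Over all genes they gave 728 higher and 987 lower of 23012 tested, 506 and 781 of 8146, and 791 and 876 of 15878. DESeq2 gave 938 and 1007 of 10597, and the main fit 161 and 444 of 13830. Leaving out a library gave 0 to 5 synthetase genes higher and 0 to 1 lower. Over the 14546 to 14807 genes tested it gave 0 to 602 and 1 to 714. Without wild-type embryo 1 the counts were 2 and 39, without wild-type embryo 3 or knockout embryo 4 they were 0 and 1, and without knockout embryo 1 they were 4 and 62. In pools, genes called higher and lower were 140 and 30 without a filter, 63 and 7 by DESeq2, 0 and 1 by limma-voom, and 18 to 254 and 7 to 125 with a pool left out, where the lone pool is assumed to vary like the other pools, against 0 and 0. For the difference, no filter gave 2 synthetase genes and DESeq2 3, all higher, and 348 and 200 or 209 and 227 genes in all, and leaving out a library gave 0 to 2 lower.

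Same-numbered embryos did not deviate together (r = -0.014 and -0.076), and the labels state no pairing. With 2 pools per group, the deviations from the group mean mirror each other. The value was therefore r = 0.320 for same-numbered and -0.320 for differently numbered pools, and it cannot show whether pools were paired. With the replicate block, 57 genes were higher and 130 lower in single embryos, 29 and 10 in pools and 0 lower in the difference. In each, 0 synthetase genes were called, and Aimp2, Asns and Psat1 lost their calls (edgeR adjusted p = 0.230, 0.119 and 0.0693). Among single embryos, replicate 2 is wild type alone and replicate 4 knockout alone. The single-embryo estimates with the block thus rest on the embryos numbered 1 and 3, with little left to estimate their spread. The ranges over the alternatives include this fit. Over all alternatives the log2 change took both signs for 5 of the 36 genes in single embryos and 18 in pools, and values are given for those named by rule. In single embryos Tars was -0.0177 on library totals and -0.155 with the block, and Qars 0.00284 with the block. With a library left out, Tars ran from -0.0856 to 0.112, Qars from -0.124 to 0.0918, Cars from -0.0428 to 0.364, Mars2 from -0.101 to 0.650 and Nars2 from -0.203 to 0.439. In pools Vars2 (0.02) was -0.00521 with DESeq2 size factors, -0.00436 by DESeq2, -0.129 by limma-voom and -0.0849 with the block. With a pool left out, Iars2 ran from -0.0260 to 0.126, Lars2 from -0.149 to 0.384 and Vars2 from -0.765 to 0.529. On TMM-scaled CPM the cytosolic sum differed by 0.309 (log2) in single embryos and -0.144 in pools, against 0.213 and -0.0414, and the mitochondrial sum in pools by -0.0366 against 0.0659. The cause of these changes was not tested.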
